A study of Mus musculus with 6 samples.

Results

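Interferon-stimulated genes and the genes that prepare peptides for MHC class I molecules were read in RNA sequencing of crypts of the mouse small intestine, where stem cells divide beside antimicrobial Paneth cells. The set was a list of 43 gene symbols chosen for function: antiviral effectors, sensors and regulators of the interferon response, and components of the class I peptide pathway. Of these, 41 were among the 17526 genes of the count table, and Mx1 and Mx2 were not analysed here. All 41 passed the filter on low counts that left 12943 genes for testing. The knockout group held 3 libraries from Fpr2VKO mice, whose genotype label gives a loss of Fpr2 in the intestinal epithelium, and the floxed control group held 3 libraries from Fpr2f/f mice, which carry floxed Fpr2 and are labelled WT. Fpr2 encodes a receptor for formylated peptides, and the study's title asks how it bears on stem cell proliferation and differentiation. The Cre driver of the deletion is not given in the sources used here, and no label ties a library to its own animal, so the p-values measure a spread among 6 libraries that may be technical only.

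Interferons are secreted proteins that bind paired receptors on neighbouring cells and act through Janus kinases. Type I and type III interferons act through a complex that contains STAT2 and IRF9 and binds the interferon-stimulated response element in promoters and switches on antiviral genes; in the gut epithelium type III interferon is a main antiviral signal. Interferon gamma acts at gamma-activated sites and is the stronger inducer of class I peptide processing, in which the immunoproteasome cuts proteins, the TAP transporter moves the peptides into the endoplasmic reticulum, and tapasin loads them onto class I heavy chains bound to beta-2-microglobulin.

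Promoter sequences show the response element known from such genes, in members whose values follow. RefSeq (GRCm38.p6, the assembly behind mm10) gave windows from 250 bases before to 50 bases after a start for 32 of the 41 members. Some genes, such as Ifit2 and Isg20, had more than 1 window, and a motif in any of them was counted. A window's start need not be the outer end of the gene. That of Ifit3 lies inside the gene, which begins at 34583119. The core GAAANNGAAA of the interferon-stimulated response element was searched on both strands, as was TTCNNNGAA, the letters of a gamma-activated site. Counting both strands, the core was found for 14 of 32 members (43.8%), against 3.99% of all 27025 genes with a window, and the gamma-activated letters for 10 of 32 (31.2%), against 9.55%. By role, the core was found in 5 of 10 antiviral effectors and 2 of 4 OAS genes with a window, in 2 of 2 sensors and 2 of 2 guanylate-binding protein genes, in 1 of 4 ISG15 and ADP-ribose modifiers, in 1 of 5 transcription regulators and in 1 of 5 genes of the class I pathway. The windows of Ifit1 (chr19:34640639-34640938, plus strand), Ifit3 (chr19:34583279-34583578, plus strand), Isg15 (chr4:156200769-156201068, minus strand) and B2m (chr2:122147437-122147736, plus strand) are printed because they hold the core in different forms. That of Tap1 (chr17:34187306-34187605, plus strand) is shown because it runs in the opposite direction over 275 bases of the Psmb9 window, so that these class I genes share a start region. Capitals mark matches to GAAANNGAAA on either strand, and where it lies on the other strand it reads TTTCNNTTTC.
Ifit1: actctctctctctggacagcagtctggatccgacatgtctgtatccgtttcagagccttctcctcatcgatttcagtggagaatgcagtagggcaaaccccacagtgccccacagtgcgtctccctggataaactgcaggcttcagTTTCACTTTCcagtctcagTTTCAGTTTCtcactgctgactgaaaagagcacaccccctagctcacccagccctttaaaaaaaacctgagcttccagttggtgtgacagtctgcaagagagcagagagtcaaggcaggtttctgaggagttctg
Ifit3: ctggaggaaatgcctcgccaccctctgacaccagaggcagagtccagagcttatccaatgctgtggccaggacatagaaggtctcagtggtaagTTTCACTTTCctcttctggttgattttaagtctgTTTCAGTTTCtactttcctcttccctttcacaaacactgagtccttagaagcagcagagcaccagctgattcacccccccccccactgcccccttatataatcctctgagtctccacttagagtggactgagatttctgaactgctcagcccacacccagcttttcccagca
Isg15: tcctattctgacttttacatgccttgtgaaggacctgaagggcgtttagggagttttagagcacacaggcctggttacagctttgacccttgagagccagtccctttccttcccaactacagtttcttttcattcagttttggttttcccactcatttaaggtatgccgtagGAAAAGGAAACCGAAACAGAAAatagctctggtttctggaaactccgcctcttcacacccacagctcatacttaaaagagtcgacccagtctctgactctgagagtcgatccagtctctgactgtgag
B2m: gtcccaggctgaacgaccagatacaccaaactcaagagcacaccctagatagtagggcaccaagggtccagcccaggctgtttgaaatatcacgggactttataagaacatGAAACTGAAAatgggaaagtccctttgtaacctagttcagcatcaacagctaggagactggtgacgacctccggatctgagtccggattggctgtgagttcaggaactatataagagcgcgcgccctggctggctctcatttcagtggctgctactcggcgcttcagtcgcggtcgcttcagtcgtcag
Tap1: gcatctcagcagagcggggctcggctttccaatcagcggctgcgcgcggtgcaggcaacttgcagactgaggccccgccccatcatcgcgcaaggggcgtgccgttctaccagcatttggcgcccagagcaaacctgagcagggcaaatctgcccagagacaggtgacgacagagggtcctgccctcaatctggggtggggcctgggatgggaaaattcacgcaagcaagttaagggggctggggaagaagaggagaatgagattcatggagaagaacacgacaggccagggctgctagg
Ifit1 held cores that began 104 and 85 bases before the start, and Ifit3 at 156 and 122 bases. Isg15 held 3 overlapping cores in tandem, which began 78, 72 and 66 bases before the start, and B2m held 1 core that began at 139 bases. The Tap1 window held neither motif. A match describes these letters only, and its absence says nothing about a factor's binding outside this window or with other letters. The 14 members with the core had a median log2 fold change of 0.29 and the 18 without it a median of 0.061, which is a description with no test.

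Library totals ran from 16542933 to 16859902 estimated counts in the knockouts, and were 11108511, 16695304 and 12075398 in floxed controls 1, 2 and 3, so the set is read less deeply in floxed controls 1 and 3. Members took between 0.203% and 0.267% of the counts of a knockout library and between 0.190% and 0.219% of a floxed control library, without scaling. On TMM-scaled library sizes they summed to 2402, 2373 and 1910 CPM in knockouts 1, 2 and 3. In floxed controls 1, 2 and 3 the sums were 1913, 2400 and 2256 CPM, so the groups overlapped. All 9 crypt epithelium markers were detected and tested, with a summed level, led by Krt8 and Krt19, of 13700.2, 11942 and 12776 CPM in knockouts 1, 2 and 3, against 11070.4, 14218 and 12553 CPM in floxed controls 1, 2 and 3. Of these 9 markers 5 had a positive log2 fold change, with a median of 0.022. The stem cell markers Lgr5 and Olfm4 were lower in each knockout than in each floxed control, as were 10.3% of all genes tested. Lgr5 stood at 35.0, 36.3 and 20.3 CPM in the knockouts, against 97.7, 41.6 and 66.6 CPM in the floxed controls. Its log2 fold change was -1.17 ± 0.31 (adjusted p 0.153 by edgeR and 0.0150 by DESeq2). Olfm4 had a log2 fold change of -0.33 ± 0.24 (adjusted p 0.596 by edgeR). Epcam was higher in each knockout than in each floxed control, as were 6.99% of all genes (log2 0.25 ± 0.20, adjusted p 0.650 by edgeR). The 12 T cell and intraepithelial lymphocyte markers in the table summed to 58.5, 68.0 and 72.1 CPM in knockouts 1, 2 and 3, against 246, 64.6 and 193 CPM in floxed controls 1, 2 and 3, so floxed controls 1 and 3 stood apart. The 12 Paneth cell markers were lower in each knockout than in each floxed control, between 23956 and 37557 CPM in the knockouts against 71638 to 141420.0 CPM in the floxed controls. In such bulk samples, fewer cells of a type and less RNA per cell cannot be told apart. Fpr2 was not analysed here, which leaves the genotype labels unchecked on the targeted gene.

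No member passed the test between knockout and floxed control crypts, and median fold changes were largest for the OAS family and the antiviral effectors among the 7 role groups. Levels are in CPM on TMM-scaled library sizes, and fold changes are log2 of knockout over floxed control by edgeR's quasi-likelihood test with Benjamini-Hochberg adjustment over all 12943 genes. At an adjusted p under 0.05, edgeR called 0 of 41 members, against 0.0155% of all genes tested in either direction and 0.00773% higher. DESeq2 also called 0 of 41, against 0.294% of all genes tested higher and 2.35% lower, and limma-voom called 0 of 41, against 0.00773% higher. At an unadjusted p under 0.05, 4 members were higher in the knockouts, against 4.09% of all genes tested, and 0 were lower, against 9.63%. The log2 fold change was above 0 for 31 of 41 members, as for 48.1% of all genes, and for 33 under DESeq2 size factors or TMM without Paneth genes, where Trim25 and Tap2 turned positive. The members' median was 0.17, beside -0.013 over all genes tested. The OAS family had a median of 0.61 (5 of 5 positive), the other antiviral effectors 0.43 (10 of 11), the ISG15 and ADP-ribose modifiers 0.27 (6 of 7), the transcription regulators 0.071 (5 of 6), the nucleic acid sensors 0.064 (2 of 4), the class I pathway -0.016 (2 of 6) and guanylate-binding proteins -0.036 (1 of 2). The class I median turned to 0.0020 under DESeq2 size factors and to 0.0033 under TMM without Paneth genes. Summed over genes, the antiviral effectors were the role group without overlap, at 149, 168 and 151 CPM in knockouts 1, 2 and 3, against 128, 131 and 132 CPM in floxed controls 1, 2 and 3. Eif2ak2 and Ifi35, whose own groups overlapped, were the largest parts of this sum. In knockout 3 they gave 51.3 and 63.7 of the 151 CPM.

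The count of members higher at an unadjusted p under 0.05 moved with the libraries kept, as did the share over all genes. It was 2 of 41 without knockout 1, against 5.03% of all genes, and 1 of 41 without knockout 2, against 1.71%. Without knockout 3 the count was 5 of 41, against 1.54%, and without floxed control 1 it was 5 of 41, against 7.86%. Without floxed control 2 the count was 4 of 41, against 10.2%, and without floxed control 3 it was 4 of 41, against 1.83%. It was 10 of 41 without floxed controls 1 and 3, which leaves 1 control library, against 4.72%, and 1 of 41 without floxed control 2 and knockout 1, against 9.81%. The members' median was 0.10 without knockout 2, 0.32 without knockout 3, 0.28 without floxed control 1 and 0.27 without floxed control 3.

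**Figure D1:**
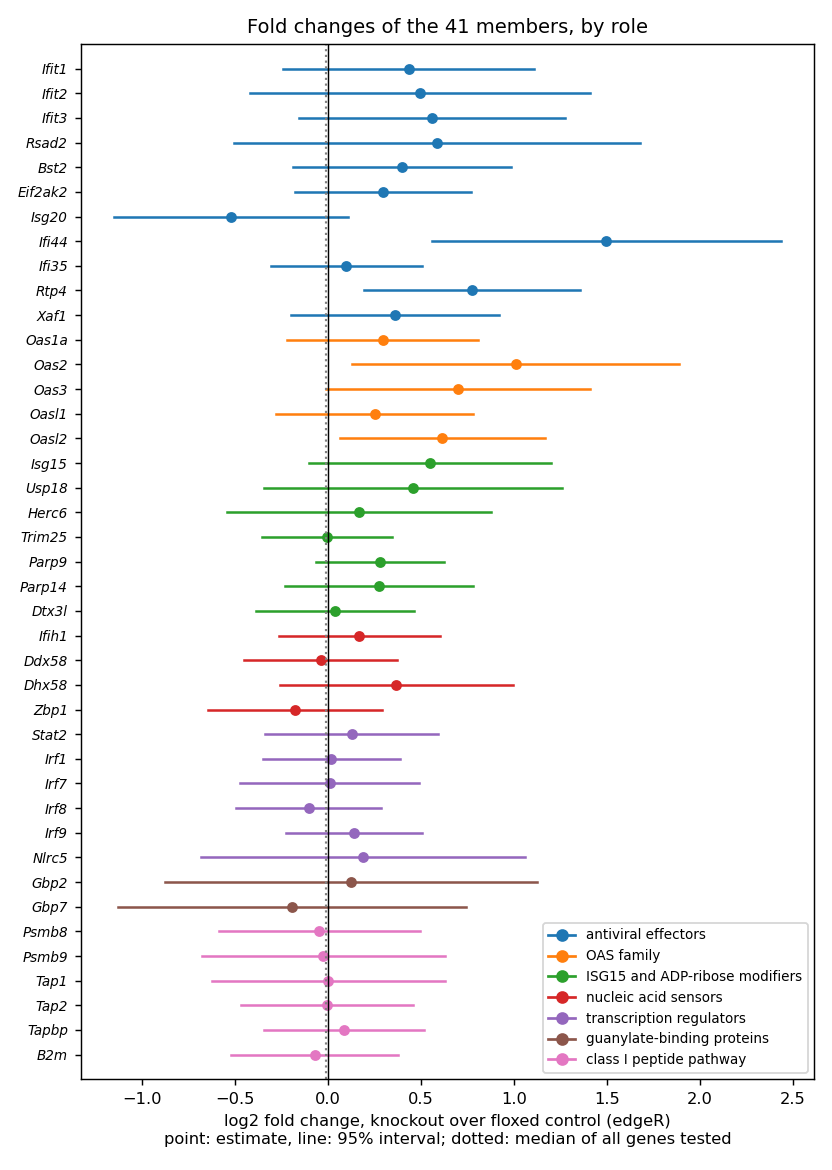
Log2 fold change of knockout over floxed control for each of the 41 members by edgeR, with lines for 95% intervals and colours for role. Intervals of Ifi44, Rtp4, Oas2 and Oasl2 lie above 0, and the 6 class I genes centre on 0 with intervals inside a 2-fold change in either direction.

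**Figure D2:**
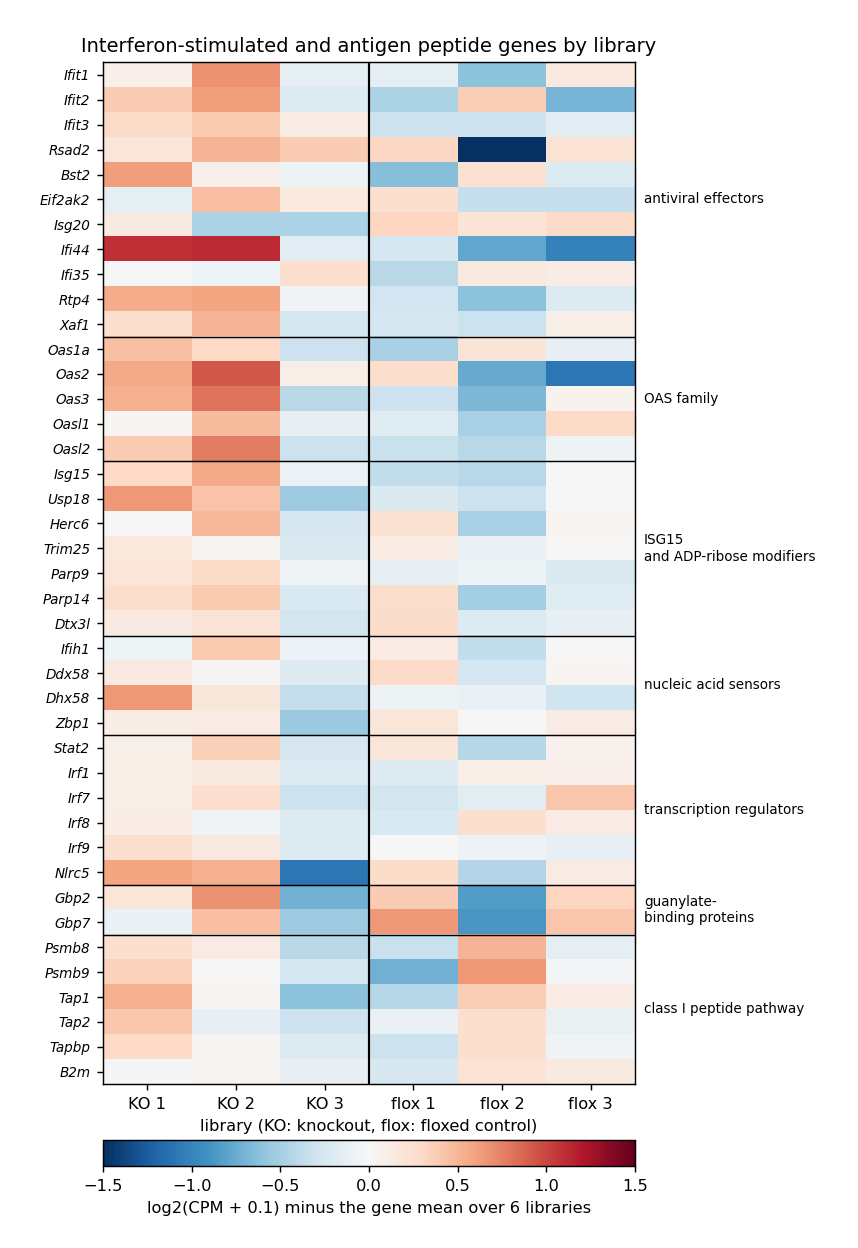
Level of each member in each library, as log2(CPM + 0.1) minus the mean of the gene over the 6 libraries, with the knockouts on the left and the roles separated by lines. Antiviral effectors and OAS genes are mostly red in knockouts 1 and 2, knockout 3 is pale or blue for most members, and floxed control 2 is blue for guanylate-binding proteins and red for class I genes.

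Knockout 3 was the low library of the knockout group for most members, and also in related lists outside the set. As centred log2 level in knockouts 1, 2 and 3, further interferon-stimulated genes stood at 0.094, 0.23 and -0.067. Immunity-related GTPases and further guanylate-binding proteins stood at 0.15, 0.51 and -0.60, and further class I genes at 0.036, -0.053 and -0.087. Constitutive proteasome subunits were highest in knockout 3, at 0.085, -0.14 and 0.19. Knockout 3 had the lowest value of the 3 knockouts for 37 of 41 members, against 33.4% of all genes tested. Under DESeq2 size factors and under TMM without Paneth genes it was lowest for 38, against 35.8% and 36.3% of all genes. Knockouts 1 and 2 each lay above every floxed control for 15 members, against 9.16% of all genes. That count leaves out knockout 3, the lowest knockout for most members but not for most genes. It is therefore a description with no test. For 4 members all 3 knockouts lay above all 3 floxed controls, against 6.99% of all genes tested, and for 1 member they all lay below, against 10.3%. The first count is near the background share.

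Among antiviral effectors, Ifi44, a gene strongly induced by type I interferon, had the largest fold change of the set. Ifi44 stood at 4.57, 4.67 and 1.85 CPM in knockouts 1, 2 and 3, against 1.75, 1.18 and 0.985 CPM in floxed controls 1, 2 and 3. Knockouts 1 and 2 were high, while knockout 3 lay just above floxed control 1, so the groups did not overlap. The log2 fold change was 1.497 ± 0.43 (SE), with an adjusted p of 0.180 by edgeR and 0.0565 by DESeq2, and over the 15 alternatives it ran from 1.24 to 1.82 with adjusted p from 0.0565 to 0.807. Rtp4 encodes a receptor transporter protein of the interferon response. It stood at 8.24, 8.48 and 5.37 CPM in knockouts 1, 2 and 3, against 4.54, 3.61 and 4.83 CPM in floxed controls 1, 2 and 3. Its groups did not overlap either, with a log2 fold change of 0.77 ± 0.26 (SE) and an adjusted p of 0.232 by edgeR.

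The IFIT proteins, which bind viral RNA ends and act as a complex, are encoded together on chromosome 19. Ifit3 stood at 2.03, 2.20 and 1.79 CPM in knockouts 1, 2 and 3, against 1.31, 1.31 and 1.48 CPM in floxed controls 1, 2 and 3. Its groups did not overlap, and its log2 fold change was 0.56 ± 0.32 (SE), with an adjusted p of 0.482 by edgeR. Ifit1, whose promoter holds a pair of response element cores, stood at 5.47, 8.32 and 4.65 CPM in knockouts 1, 2 and 3, against 4.72, 3.34 and 5.71 CPM in floxed controls 1, 2 and 3. Here knockout 2 alone was high and floxed control 3 lay above knockouts 1 and 3 (log2 0.43 ± 0.30, adjusted p 0.583 by edgeR). Ifit2 stood at 1.97, 2.36 and 1.29 CPM in knockouts 1, 2 and 3, against 1.05, 1.97 and 0.886 CPM in floxed controls 1, 2 and 3, with floxed control 2 level with knockout 1; its log2 fold change of 0.49 ± 0.41 turned to -0.0063 without floxed controls 1 and 3.

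Rsad2, which makes a chain-terminating nucleotide, was near the lower limit of these libraries, at 1.35, 1.72 and 1.57 CPM in knockouts 1, 2 and 3, against 1.48, 0.328 and 1.38 CPM in floxed controls 1, 2 and 3. Only floxed control 2, at 5 estimated counts, stood low, and the log2 fold change was 0.58 ± 0.49. Bst2, the tetherin that holds budding virus at the cell surface, stood at 17.8, 12.1 and 10.9 CPM in knockouts 1, 2 and 3, against 7.34, 13.5 and 9.95 CPM in floxed controls 1, 2 and 3, with floxed control 2 above knockouts 2 and 3. Eif2ak2, the kinase PKR that stops translation on double-stranded RNA, stood at 41.6, 63.3 and 51.3 CPM in the knockouts, against 54.7, 36.3 and 36.4 CPM in the floxed controls. In it floxed control 1 lay above knockouts 1 and 3 (log2 0.29 ± 0.21, adjusted p 0.593 by edgeR). Ifi35, an interferon-induced protein, was the effector whose highest value was in knockout 3, at 53.3, 51.3 and 63.7 CPM in the knockouts, against 40.3, 58.9 and 58.0 CPM in the floxed controls. Xaf1, a pro-apoptotic factor, had a log2 fold change of 0.36 ± 0.25 with overlapping groups.

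Isg20, an RNA exonuclease, had the opposite order. Isg20 stood at 4.06, 2.63 and 2.63 CPM in knockouts 1, 2 and 3, against 4.63, 4.26 and 4.53 CPM in floxed controls 1, 2 and 3. All 3 knockouts lay below all 3 floxed controls, with a log2 fold change of -0.52 ± 0.28 (SE) and an adjusted p of 0.450 by edgeR. Isg20 is also expressed by lymphocytes, and floxed control 2, the control with few lymphocyte transcripts, lay below the other floxed controls and above each knockout; the part of lymphocytes in the Isg20 values was not tested.

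The OAS enzymes sense double-stranded RNA and make oligoadenylates that activate RNase L, and all 5 members lie on chromosome 5. Oas2 stood at 4.23, 5.47 and 3.02 CPM in knockouts 1, 2 and 3, against 3.41, 1.64 and 1.28 CPM in floxed controls 1, 2 and 3. Floxed control 1 lay above knockout 3, so the groups overlapped (log2 1.01 ± 0.40, SE; adjusted p 0.299 by edgeR). Oasl2, which in mice keeps synthetase activity, stood at 42.4, 55.7 and 26.1 CPM in knockouts 1, 2 and 3, against 25.9, 24.5 and 30.9 CPM in floxed controls 1, 2 and 3. Knockouts 1 and 2 exceeded every floxed control, while knockout 3 lay among them (log2 0.61 ± 0.25, adjusted p 0.311 by edgeR). Oas3 showed the same order, at 12.1, 14.8 and 6.21 CPM in the knockouts, against 6.72, 5.18 and 8.67 CPM in the floxed controls, with a log2 fold change of 0.70 ± 0.32.

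Oas1a was the most abundant of the 5 per length of transcript and stood at 49.9, 45.2 and 29.2 CPM in the knockouts, against 26.1, 41.7 and 33.5 CPM in the floxed controls, with floxed control 2 above knockout 3 (log2 0.29 ± 0.23). Oasl1, which in mice limits translation of Irf7, stood at 16.6, 22.7 and 15.0 CPM in the knockouts, against 14.4, 11.6 and 19.9 CPM in the floxed controls, with floxed control 3 above knockouts 1 and 3. The related Oas1g, outside the set, did not overlap between the groups, at 15.0, 15.2 and 9.74 CPM in the knockouts, against 7.51, 6.62 and 8.67 CPM in the floxed controls (log2 0.82 ± 0.23, adjusted p 0.180 by edgeR). Reads of the near-identical Oas1 copies could be split among them, and 3 of the 5 members had estimated counts that were not whole, so values of single copies are uncertain. Without knockout 2 the median log2 fold change of the 5 OAS genes was 0.34, and without knockout 3 it was 0.86.

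**Figure D3:**
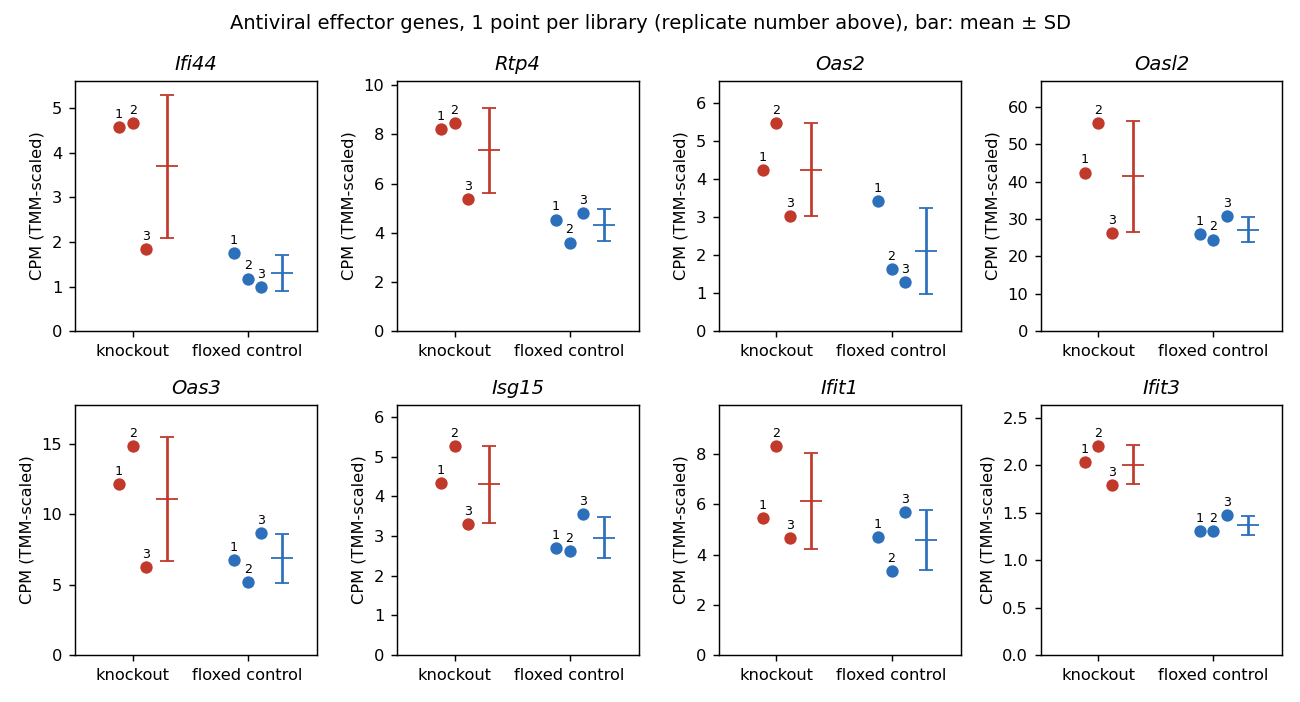
CPM of 8 effector genes in each library, with the replicate number above each point and bars for mean ± SD (n = 3 each), knockouts in red on the left and floxed controls in blue. Knockouts 1 and 2 are above the floxed controls in most panels. Knockout 3 is also above them for Ifit3, Rtp4 and Ifi44, for Ifi44 just above floxed control 1, and lies among them in the other panels.

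ISG15 is a ubiquitin-like protein that is attached to others during the response. Isg15 stood at 4.34, 5.26 and 3.30 CPM in knockouts 1, 2 and 3, against 2.71, 2.62 and 3.54 CPM in floxed controls 1, 2 and 3. Floxed control 3 lay above knockout 3 (log2 0.55 ± 0.30, SE; adjusted p 0.446 by edgeR). Usp18, the protease that removes ISG15 and damps the type I receptor, stood at 4.23, 3.59 and 1.79 CPM in the knockouts, against 2.27, 2.10 and 2.66 CPM in the floxed controls, with each floxed control above knockout 3. Herc6, the ISG15 ligase of mice, had a log2 fold change of 0.17 ± 0.32, which turned negative in 2 of the 15 alternatives.

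Parp9 and Dtx3l form an ADP-ribosylation and ubiquitin ligase complex and are encoded by genes on chromosome 16 that overlap at their ends, so that without strand some reads cannot be told apart. Parp9 stood at 45.5, 48.4 and 38.6 CPM in knockouts 1, 2 and 3, against 36.8, 38.0 and 34.5 CPM in floxed controls 1, 2 and 3. Its groups did not overlap, at a log2 fold change of 0.28 ± 0.16 (SE) and an adjusted p of 0.464 by edgeR. Its partner Dtx3l stood at 45.9, 48.1 and 34.03 CPM in the knockouts, against 50.6, 36.2 and 38.1 CPM in the floxed controls, with the highest value in floxed control 1 (log2 0.037 ± 0.19). Parp14, a mono-ADP-ribosyltransferase, stood at 47.8, 52.4 and 33.9 CPM in the knockouts, against 48.0, 27.9 and 35.3 CPM in the floxed controls, with floxed control 1 between knockouts 1 and 2. Trim25, a ubiquitin ligase that acts on RIG-I, stood at 86.0, 79.0 and 66.5 CPM in the knockouts, against 83.5, 71.7 and 77.6 CPM in the floxed controls; its log2 fold change of -0.0077 ± 0.16 was the nearest to 0 in this role group.

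The RNA and DNA sensors had overlapping groups throughout. Ifih1, the long double-stranded RNA sensor MDA5, stood at 32.7, 45.1 and 32.4 CPM in the knockouts, against 37.4, 26.6 and 34.3 CPM in the floxed controls. Ddx58, the sensor RIG-I, stood at 30.6, 28.4 and 24.4 CPM in the knockouts, against 34.1, 23.2 and 28.7 CPM in the floxed controls. In both, floxed control 1 lay above knockouts 1 and 3, and floxed control 2 was the lowest floxed control. Dhx58, the regulator LGP2, stood at 8.97, 6.44 and 4.42 CPM in the knockouts, against 5.41, 5.31 and 4.63 CPM in the floxed controls, with knockouts 1 and 2 above every floxed control and knockout 3 below them (log2 0.37 ± 0.28). Zbp1, the Z-nucleic acid sensor that can start necroptosis, stood at 17.6, 17.7 and 11.0 CPM in the knockouts, against 18.4, 16.3 and 17.7 CPM in the floxed controls, with knockout 3 alone standing low (log2 -0.18 ± 0.21, adjusted p 0.770 by edgeR). All 4 intervals of the sensors lay within a 2-fold change in either direction.

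The 6 transcription regulators of the response had overlapping groups and a median log2 fold change of 0.071. Stat2 and Irf9, which belong to the type I and type III complex, had log2 fold changes of 0.13 ± 0.21 and 0.14 ± 0.17, with adjusted p of 0.853 and 0.774 by edgeR. Irf1, an early factor of the interferon gamma response, stood at 153, 158 and 126 CPM in the knockouts, against 126, 154 and 152 CPM in the floxed controls (log2 0.017 ± 0.17, 95% interval -0.35 to 0.39). Irf7, the amplifier of type I interferon, stood at 46.5, 52.1 and 34.9 CPM in the knockouts, against 36.0, 39.0 and 58.0 CPM in the floxed controls, with the highest value in floxed control 3 and the lowest in knockout 3. Irf8, best known as a myeloid and B cell factor, stood at 161, 144 and 130.1 CPM in the knockouts, against 128, 177 and 163 CPM in the floxed controls. Of 10 tested myeloid markers 7 had a negative log2 fold change, against 6722 of all 12943 genes tested, with a median of -0.79. Of the 10, 2 were lower in each knockout than in each floxed control, against 10.3% of all genes tested. These were Lyz2 (log2 -1.35 ± 0.31, adjusted p 0.124 by edgeR and 0.0152 by DESeq2) and Siglech (log2 -1.25 ± 0.45). Lyz2 had estimated counts that were not whole, so its value is uncertain. Cd68, Itgam and Cd14 had positive log2 fold changes, of 0.41 ± 0.34, 0.12 ± 0.33 and 0.094 ± 0.32, with overlapping groups. The mean centred log2 level of the myeloid list was -0.26, -0.14 and -0.26 in knockouts 1, 2 and 3, against 0.49, -0.25 and 0.43 in floxed controls 1, 2 and 3. All 6 tested B and plasma cell markers had negative log2 fold changes, with a median of -1.85. At an unadjusted p under 0.05, 5 of these markers were lower, against 9.63% of all genes tested. Their mean centred log2 level was -0.048, -0.84 and -0.82 in knockouts 1, 2 and 3, against 1.36, -0.65 and 1.0 in floxed controls 1, 2 and 3. Irf8 was low in floxed control 1 and high in floxed control 2, while both lists were highest in floxed control 1; the part of these cells in the Irf8 values was not tested. Nlrc5, the transactivator of class I genes, stood at 10.4, 10.03 and 3.19 CPM in knockouts 1, 2 and 3, against 8.38, 5.05 and 7.48 CPM in floxed controls 1, 2 and 3. Knockouts 1 and 2 were above every floxed control and knockout 3 was below every floxed control, which gave a log2 fold change of 0.19 ± 0.39 (adjusted p 0.887 by edgeR); it was 0.56 without knockout 3, and it turned negative in 4 of the 15 alternatives.

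Guanylate-binding proteins are GTPases that attack vacuoles of intracellular pathogens, and both members lie on chromosome 3. Gbp2 stood at 2.48, 3.54 and 1.29 CPM in knockouts 1, 2 and 3, against 2.88, 1.18 and 2.76 CPM in floxed controls 1, 2 and 3. Gbp7 stood at 2.88, 4.24 and 2.07 CPM in knockouts 1, 2 and 3, against 4.89, 1.64 and 4.14 CPM in floxed controls 1, 2 and 3. In both, knockout 2 and floxed controls 1 and 3 were high, and knockout 3 and floxed control 2 were low. In the floxed controls this order is that of the lymphocyte markers, which summed to 246, 64.6 and 193 CPM in floxed controls 1, 2 and 3. In the knockouts the order differed. There the markers summed to 58.5, 68.0 and 72.1 CPM in knockouts 1, 2 and 3, highest in knockout 3, where both genes were lowest. The part of lymphocytes in the Gbp2 and Gbp7 values was not tested. The median log2 fold change of the pair was -0.036, and it was 1.03 without floxed controls 1 and 3 and -0.38 without floxed control 2.

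**Figure D4:**
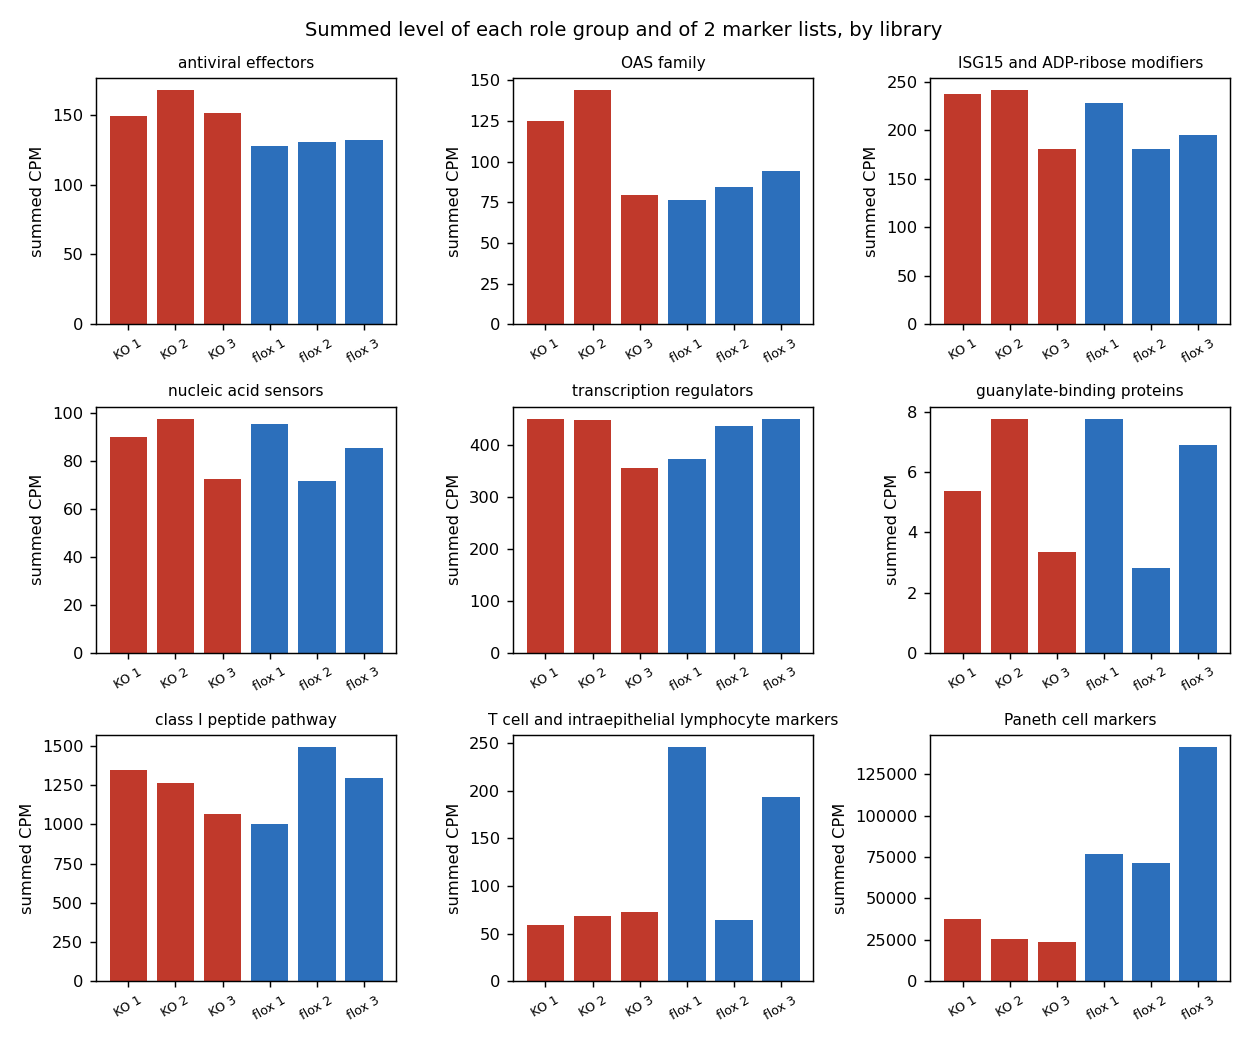
Summed CPM of each role group in each library, with T cell and Paneth cell marker lists for comparison, knockouts in red on the left and floxed controls in blue. Antiviral effectors are higher in all 3 knockouts and OAS genes in knockouts 1 and 2, guanylate-binding proteins and T cell markers are low in floxed control 2, and class I genes are highest in floxed control 2.

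Genes of the class I peptide pathway did not separate the groups, and B2m among them was the most abundant member per length of transcript. B2m, the beta-2-microglobulin light chain, stood at 782, 812 and 724 CPM in knockouts 1, 2 and 3, against 665, 909.6 and 864 CPM in floxed controls 1, 2 and 3. Floxed controls 2 and 3 lay above all 3 knockouts and floxed control 1 below them, and the log2 fold change was -0.074 ± 0.20 (95% interval -0.52 to 0.38, adjusted p 0.919 by edgeR). Tapbp, the tapasin that loads peptides, stood at 163, 136 and 115 CPM in the knockouts, against 106, 156 and 128 CPM in the floxed controls, with knockout 1 and floxed control 2 high. Per kilobase of merged exon sequence (GENCODE M21), B2m was first of the 41 members, at 898 ± 52.3 in knockout crypts and 945 ± 151 in floxed control crypts (CPM per kb, SD, n = 3 each). Tapbp, Irf1, Psmb8 and Ifi35 followed between 30.3 and 38.0 CPM per kb, and these 4 did not differ beyond their spread. Rsad2 was last, at 0.357 ± 0.0420 in knockout crypts and 0.245 ± 0.148 in floxed control crypts.

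Psmb8 and Psmb9, catalytic subunits of the immunoproteasome, and Tap1 and Tap2, the paired subunits of the peptide transporter, lie side by side on chromosome 17. Psmb8 stood at 134, 124 and 85.3 CPM in knockouts 1, 2 and 3, against 90.3, 162 and 103 CPM in floxed controls 1, 2 and 3. Psmb9 stood at 84.8, 67.1 and 55.6 CPM in knockouts 1, 2 and 3, against 40.6, 105 and 65.4 CPM in floxed controls 1, 2 and 3. Floxed control 2 had the highest value of all 6 libraries in both. Tap1, which shares its start region with Psmb9, stood at 133, 94.1 and 59.8 CPM in knockouts 1, 2 and 3, against 68.3, 119 and 99.7 CPM in floxed controls 1, 2 and 3, with knockout 1 and floxed control 2 high and knockout 3 and floxed control 1 low. Tap2 stood at 47.3, 32.8 and 28.9 CPM in the knockouts, against 33.5, 42.8 and 33.1 CPM in the floxed controls. Log2 fold changes of these 4 genes lay between -0.048 and 0.0014, and their 95% intervals between -0.68 and 0.63, so that all 6 class I intervals lay within a 2-fold change in either direction and 3, those of B2m, Tapbp and Tap2, within 1.5-fold. For the class I group floxed control 2 was the highest floxed control in 6 of 6 genes, whereas among the 11 antiviral effectors it was the highest in 3 and the lowest in 6.

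Constitutive proteasome subunits, which the immunoproteasome subunits replace, followed the class I order in the floxed controls and another order in the knockouts. The 7 of them had a median log2 fold change of 0.00089, with 0 at an unadjusted p under 0.05 by edgeR, and as centred log2 level they stood at 0.085, -0.14 and 0.19 in knockouts 1, 2 and 3, against -0.56, 0.43 and 0.0034 in floxed controls 1, 2 and 3. The class I group stood at 0.30, 0.020 and -0.32 in knockouts 1, 2 and 3, against -0.36, 0.37 and -0.015 in floxed controls 1, 2 and 3 on the same scale. The ratio of Psmb8 to Psmb5, which does not depend on scaling, was 1.404, 1.70 and 0.881 in knockouts 1, 2 and 3, against 1.58, 1.32 and 1.10 in floxed controls 1, 2 and 3. Psmb9 over Psmb6 gave 0.587, 0.515 and 0.328 in knockouts 1, 2 and 3, against 0.407, 0.539 and 0.442 in floxed controls 1, 2 and 3. Psmb10 over Psmb7 gave 2.12, 1.98 and 1.91 in knockouts 1, 2 and 3, against 2.06, 2.14 and 2.20 in floxed controls 1, 2 and 3. Knockout 3 was lowest in all 3 ratios, and exact two-sided permutation tests between the groups gave p = 1, 1 and 0.2 (adjusted over the 3 ratios, 1, 1 and 0.6), where 0.1 is the smallest p that 3 libraries against 3 allow.

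**Figure D5:**
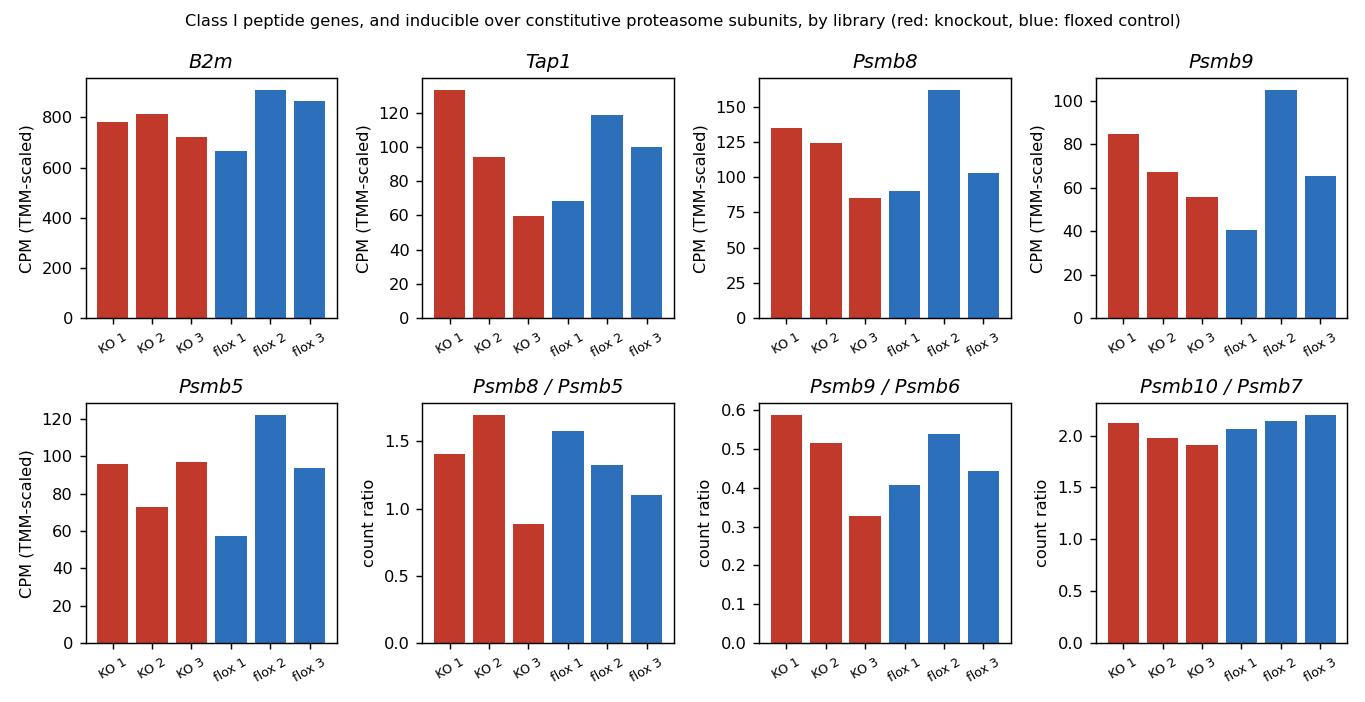
CPM of B2m, Tap1, Psmb8, Psmb9 and the constitutive subunit Psmb5, and count ratios of inducible to constitutive proteasome subunits, in each library, with knockouts in red on the left and floxed controls in blue. Among the floxed controls, number 2 is highest and number 1 lowest for the 5 genes shown, and knockout 3 has the lowest value of each ratio.

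The signal and its receptors were read from further lists. Of 21 interferon ligand genes, 19 were not analysed here. Ifng, interferon gamma, had 0, 1 and 1 counts in knockouts 1, 2 and 3, against 0, 0 and 1 counts in floxed controls 1, 2 and 3, and a count of 0 allows up to 3 counts, or 0.169 CPM in knockout 1, 0.262 CPM in floxed control 1 and 0.197 CPM in floxed control 2 (counting error only). Ifnz had under 1 estimated count in every library. The receptor and JAK-STAT list had 16 tested genes with a median log2 fold change of -0.13. By edgeR 0 passed, and by DESeq2 1 passed as lower, against 2.35% of all genes tested. At an unadjusted p under 0.05, 1 was higher, against 4.09% of all genes, and 3 were lower, against 9.63%. Ifnar2, a chain of the type I receptor, stood at 6.09, 6.92 and 6.88 CPM in knockouts 1, 2 and 3, against 11.6, 12.2 and 11.1 CPM in floxed controls 1, 2 and 3. All 3 knockouts lay below all 3 floxed controls, at a log2 fold change of -0.81 ± 0.19 (SE), and the adjusted p was 0.130 by edgeR and 0.0328 by DESeq2. Its partner Ifnar1 stood at 47.7 ± 3.72 CPM in knockout crypts and 54.1 ± 5.87 CPM in floxed control crypts (SD, n = 3 each; log2 -0.18 ± 0.15, adjusted p 0.666 by edgeR).

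Ifngr1, the ligand-binding chain of the interferon gamma receptor, stood at 169, 143 and 171 CPM in the knockouts, against 104, 139 and 103 CPM in the floxed controls, without overlap (log2 0.48 ± 0.18, adjusted p 0.266 by edgeR), and Ifngr2 at 167, 155 and 169 CPM in the knockouts, against 149, 186 and 184 CPM in the floxed controls. Ifnlr1, the type III receptor chain, stood at 13.1, 12.2 and 11.0 CPM in the knockouts, against 11.8, 9.57 and 13.2 CPM in the floxed controls, and its partner Il10rb at 61.3, 56.4 and 60.1 CPM in the knockouts, against 70.1, 68.8 and 85.7 CPM in the floxed controls, which was lower in each knockout than in each floxed control (log2 -0.34 ± 0.15, adjusted p 0.367 by edgeR). Stat3 and the phosphatase Ptpn6 had log2 fold changes of -0.35 ± 0.15 and -0.64 ± 0.20, with adjusted p of 0.338 and 0.193 by edgeR. Ptpn6, which lymphocytes and tuft cells also express, stood at 23.8, 17.1 and 20.99 CPM in the knockouts, against 32.0, 26.5 and 38.2 CPM in the floxed controls, while the 7 tuft cell markers summed to 101, 61.3 and 71.3 CPM in knockouts 1, 2 and 3, against 204, 97.4 and 185 CPM in floxed controls 1, 2 and 3; their part in the Ptpn6 values was not tested.

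Of 18 tested sensor adaptors and kinases, 0 passed by edgeR or DESeq2, and 2 were lower at an unadjusted p under 0.05, against 9.63% of all genes tested. These were Irf5, with low values and a log2 fold change of -1.43 ± 0.55, and Mavs, the mitochondrial adaptor of RIG-I and MDA5, which stood at 63.2, 55.3 and 45.2 CPM in the knockouts, against 63.8, 79.9 and 71.1 CPM in the floxed controls (log2 -0.39 ± 0.17, adjusted p 0.350 by edgeR). Cgas, the cytosolic DNA sensor, stood at 12.9, 13.9 and 13.0 CPM in the knockouts, against 10.4, 10.6 and 9.75 CPM in the floxed controls, without overlap (log2 0.37 ± 0.17). The adaptor Ticam1 had a log2 fold change of -0.32 ± 0.15.

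Interferon-stimulated genes outside the 43 had mostly positive fold changes. Of 61 tested, 47 had a positive log2 fold change, against 48.1% of all genes tested, and the median was 0.14. By edgeR 0 passed, and by DESeq2 1 passed as higher, against 0.294% of all genes. At an unadjusted p under 0.05, 6 were higher, against 4.09%, and 1 was lower, against 9.63%. In 9 of the 61 all 3 knockouts lay above all 3 floxed controls, against 6.99% of all genes tested. In 0 they all lay below, against 10.3%. Besides Oas1g, the smallest p belonged to Parp11, Pnpt1 and Slfn9. Parp11, a mono-ADP-ribosyltransferase, stood at 64.5, 87.3 and 131 CPM in the knockouts, against 44.0, 67.5 and 37.9 CPM in the floxed controls (log2 0.92 ± 0.28, adjusted p 0.193 by edgeR and 0.0369 by DESeq2), with floxed control 2 above knockout 1 and the highest value in knockout 3. Pnpt1, a mitochondrial RNA-degrading enzyme, stood at 59.9, 60.9 and 62.2 CPM in the knockouts, against 42.5, 49.0 and 35.8 CPM in the floxed controls (log2 0.52 ± 0.16). Slfn9, of the Schlafen family, had a log2 fold change of 0.59 ± 0.23. The chemokine genes Cxcl9 and Cxcl10, targets of interferon gamma, were under the filter, with at most 1.07 CPM in any library.

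Immunity-related GTPases and further guanylate-binding proteins had 13 tested genes, a median log2 fold change of 0.067 and 0 calls by edgeR. DESeq2 called 1 as higher, against 0.294% of all genes tested. At an unadjusted p under 0.05, 1 was higher, against 4.09% of all genes, and 1 was lower, against 9.63%. Gvin1, a very large interferon-inducible GTPase, stood at 775, 1124 and 933 CPM in the knockouts, against 727, 463 and 339.6 CPM in the floxed controls. Its groups did not overlap, and its log2 fold change was 0.89 ± 0.29 (SE), with an adjusted p of 0.212 by edgeR and 0.0276 by DESeq2. Gbp6 and Gbp9 had log2 fold changes of 0.77 ± 0.38 and -1.10 ± 0.50, and Tgtp1 one of -0.53 ± 0.39, with overlapping groups in each. Of the class I heavy chain genes, H2-K1 stood at 645, 559.9 and 474 CPM in the knockouts, against 484, 706 and 677 CPM in the floxed controls (log2 -0.15 ± 0.22). H2-D1 stood at 634, 493 and 427 CPM in the knockouts, against 469.6, 661 and 589 CPM in the floxed controls (log2 -0.15 ± 0.22). In both the groups overlapped and floxed control 2 was the highest library, as for B2m, Psmb8 and Psmb9.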

How the data were processed

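Crypt total RNA went through an mRNA library kit and was read as 50 bp single ends on the DNBSEQ platform, per the labels' protocols. Per the submitters' processing notes the build was mm10; no source used here gives the aligner, the counter or the annotation. The authors deposited estimated counts per gene, not normalised, of which 31.1% to 35.2% per library are not whole; they were rounded before testing. Strand use is not stated.

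edgeR 4.0.16 in R 4.3.3 was fitted to all 6 libraries (filterByExpr on group, TMM, robust glmQLFit, glmQLFTest, Benjamini-Hochberg over all genes; adjusted p under 0.05). SE and 95% intervals come from the F statistic. CPM uses TMM-scaled library sizes and list levels use log2 CPM with prior count 2, centred on the 6 libraries. Alternatives were DESeq2 1.42.0, limma-voom (limma 3.58.1), other scalings and filters, a replicate block and libraries left out; DESeq2 gave 251 genes no adjusted p. Scripts were tested on simulated data. Exact tests and figures used Python 3.11.15, scipy 1.17.1 and matplotlib 3.10.9. RefSeq and GENCODE M21 gave positions and lengths for 41 members.

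Members and lists were chosen with earlier results of these data known. All members are named; per-library CPM is given for members with an unadjusted p under 0.05, members without overlap, the 3 most and the least abundant of each role, and, chosen after their values were seen, for those in the printed promoters and figures and some others. Of each further list up to 4 genes with the smallest p are named, with fixed genes such as H2-K1, Psmb5 and the receptors; Il10rb, Ifnar1, Cxcl9, Cxcl10, Erap1, Lgr5, Olfm4, Lyz2, Siglech and others beyond that rule were chosen after their values were seen. No pair of libraries was a duplicate.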

Additional observations from a re-analysis of the deposited data

How the results depend on the processing

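In all 15 alternatives 0 members were called by edgeR, DESeq2 or limma-voom. The members' median log2 fold change stayed positive, from 0.0996 without knockout 2 to 0.38 without floxed controls 1 and 3, which leaves 1 control library, and was 0.12 without floxed control 2 and knockout 1. The number of members higher at an unadjusted p under 0.05 was 4 in the main comparison, 3 to 5 under the other tests, scalings and filters, and 1 to 5 with single libraries left out. Of all genes, 2 were called in the main comparison, 342 by DESeq2, 67 without a filter, 955 without floxed control 2 and 920 without floxed control 2 and knockout 1, and 0 under DESeq2 size factors or TMM without Paneth genes. With replicate number as a block, 39 genes and 0 members were called, the members' median was 0.16 and 3 members were higher at an unadjusted p under 0.05. Deviations from the group means correlated at -0.18, -0.27 and 0.068 for libraries numbered 1, 2 and 3. Between libraries of unlike number they correlated at -0.14 to 0.38. Deviations from a mean of 3 libraries depend on each other, so these values cannot decide whether the numbers pair the libraries. No label says what the numbers share.

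Log2 fold changes of some members changed sign in some alternatives, and the cause was not tested. Not all were near 0 in the main comparison, where Ifit2 stood at 0.49, Gbp7 at -0.20 and Nlrc5 at 0.19. Under DESeq2 size factors, Trim25 (0.0087) and Tap2 (0.0102) changed sign. Under TMM without Paneth genes, Trim25 (0.0070) and Tap2 (0.0103) changed sign. By DESeq2's Wald test, Trim25 (0.00884) and Tap2 (0.0105) changed sign. By limma-voom, Psmb9 (0.0577) and Tap1 (-0.0344) changed sign. With no filter beyond 1 count, Trim25 (0.0181) and Tap2 (0.0162) changed sign. With a filter of 1 CPM in 3 libraries, Tap1 (-0.00313) changed sign. With the replicate block, Psmb9 (0.0498) and Tap1 (-0.0441) changed sign. Without floxed controls 1 and 3, Ifit2 (-0.00629), Ifi35 (-0.00983), Trim25 (0.17), Ddx58 (0.32), Irf1 (-0.0213), Gbp7 (0.96), Tap1 (-0.25) and Tapbp (-0.11) changed sign. Without floxed control 2 and knockout 1, Dtx3l (-0.11), Stat2 (-0.0375), Irf7 (-0.10), Nlrc5 (-0.26), Gbp2 (-0.22), Psmb8 (0.12), Psmb9 (0.22), Tap1 (-0.12) and B2m (0.0104) changed sign.

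With single libraries left out, the log2 fold changes that changed sign had these lowest and highest values. Dtx3l ran from -0.0534 to 0.23, Irf1 from -0.0408 to 0.11, Irf7 from -0.12 to 0.28, Nlrc5 from -0.0646 to 0.56 and Tap1 from -0.31 to 0.25. Tapbp ran from -0.0495 to 0.24, Herc6 from -0.0701 to 0.36, Ifih1 from -0.00163 to 0.30, Stat2 from -0.0317 to 0.28 and Gbp2 from -0.25 to 0.43. Tap2 ran from -0.24 to 0.14, Ifi35 from -0.0305 to 0.22, Trim25 from -0.0896 to 0.0925, Ddx58 from -0.17 to 0.13 and Zbp1 from -0.28 to 0.0157. Gbp7 ran from -0.55 to 0.14, Psmb8 from -0.18 to 0.25, Psmb9 from -0.27 to 0.39, Irf8 from -0.20 to 0.00586 and B2m from -0.17 to 0.0216. The members not listed kept their sign there. Floxed controls 1 and 3 are the least deeply read libraries, and members under 5 CPM, such as Ifi44, Rsad2 and the guanylate-binding proteins, rest on few counts.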

Other observations

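Among 29 further tested genes of the class I pathway, 0 passed by edgeR, DESeq2 or limma-voom, and the median log2 fold change was -0.048. At an unadjusted p under 0.05, 0 were higher, against 4.09% of all genes tested, and 2 were lower, against 9.63%. The lower pair were nonclassical class I genes. H2-T22, a ligand of some gamma-delta T cell receptors, stood at 48.1, 40.9 and 40.0 CPM in the knockouts, against 51.5, 59.9 and 71.5 CPM in the floxed controls (log2 -0.50 ± 0.17, adjusted p 0.230 by edgeR). H2-Q7, which encodes the Qa-2 antigen, stood at 4.18, 7.40 and 3.41 CPM in the knockouts, against 8.91, 8.72 and 8.47 CPM in the floxed controls (log2 -0.80 ± 0.29, adjusted p 0.261 by edgeR). In both, all 3 knockouts lay below all 3 floxed controls, floxed control 2 included. That order held for 2 of the 29 genes, against 10.3% of all genes tested. The opposite order held for 3 of the 29, H2-T3, Canx and Pdia3, against 6.99% of all genes. H2-T3, the thymus leukaemia antigen of intestinal epithelium that binds CD8 alpha chains, lay above in all 3 knockouts, at 99.6, 103 and 121 CPM in the knockouts, against 78.7, 89.2 and 92.3 CPM in the floxed controls (log2 0.32 ± 0.16, adjusted p 0.405 by edgeR). Near-identical class I genes can share reads, so the value of a single H2-Q or H2-T gene is uncertain. Erap1, the peptide trimmer, stood at 196, 186 and 152 CPM in the knockouts, against 158, 169.9 and 139 CPM in the floxed controls, with overlapping groups.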
